A study of Mus musculus with 14 samples.

Results

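Mouse gallbladder organoids that had been differentiated in culture were compared with gallbladder tissue across all measured genes. The arrays were chosen by sample title, 2 of differentiated gallbladder organoid and 2 of GB tissue, which made 4 of the 14 arrays in the series. All material came from C57BL/6 mice. Differentiated organoids were gallbladder organoids grown in Matrigel, a basement membrane gel, and then kept for 2 weeks without R-spondin 1, noggin and nicotinamide, while EGF, FGF10 and HGF stayed in the medium. GB tissue was gallbladder tissue extracted with no culture step named. The remaining groups, each of 2 arrays, were gallbladder organoids kept in the full medium with R-spondin 1, noggin and nicotinamide, liver organoids, small intestine organoids, liver tissue and small intestine tissue. The age, sex and number of mice and any pooling were not given in the sources used here. Nor was it said that replicates came from separate mice or cultures, so p-values measure the spread between these arrays, which may be technical. For GB tissue it was not technical alone, as sex-linked genes differed between its replicates. Each array gave log2 probe set signals for 19938 genes, and a difference below is the mean of the differentiated organoids minus the mean of GB tissue in log2 units, so that 1 unit is a doubling.

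The gallbladder stores bile and concentrates it by moving salt and water out of the lumen, and its epithelium secretes mucus and bicarbonate. It sits on a wall of connective tissue and smooth muscle that contracts in response to cholecystokinin after a meal. Noggin is an antagonist of BMP ligands and R-spondin 1 amplifies the response to Wnt ligands, and both are used to keep epithelial stem cells dividing in culture. Organoids of this type hold epithelium alone, whereas whole tissue holds epithelium, muscle, stroma, vessels, nerves and blood cells.

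The differentiated organoid arrays were nearly alike (Pearson r over genes 0.998, pooled SD between the 2 arrays 0.0952 log2 units), and the GB tissue arrays stood further apart (r 0.965, pooled SD 0.404). Hepatocyte markers were high in GB tissue. The mean of 28 hepatocyte markers was 6.61 and 6.55 in the differentiated organoids, against 11.36 in GB tissue replicate 1 and 13.13 in replicate 2, and it was 13.70 and 13.53 in liver tissue. The GB tissue replicates also differed in sex-linked genes. Xist, the RNA that coats an inactive X chromosome, was at 11.78 and 12.24 in the differentiated organoids, against 13.51 and 5.46 in GB tissue. Eif2s3y, a Y-linked translation factor, was at 3.90 and 3.94 in the differentiated organoids, against 3.72 and 10.02 in GB tissue. GB tissue replicate 2 was the only one of the 14 arrays with low Xist and high Eif2s3y, which is a male pattern. Sex thus went with replicate in GB tissue, and the 2 cannot be told apart. Because GB tissue varied more than the spread shared by the 7 groups, adjusted p-values of this comparison may be too small. With weights for each array's own spread, 4535 genes were called higher and 2450 lower, in place of 5710 and 2808. Differentiated and other gallbladder organoid arrays varied less than that shared spread (pooled SD 0.0952 and 0.0985). Tests between these organoid groups may therefore miss differences, and array weights gave more calls there, as listed at the end. The part of the hepatocyte markers' source in any other result was not tested beyond leaving out 1782 genes that were higher in liver tissue. Those were genes called at least 1 log2 unit higher in liver tissue than in GB tissue. Leaving them out kept 14 of the 28 hepatocyte markers, so it did not remove the hepatocyte signal.

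Marker genes were checked against the labels. The epithelial genes Epcam, Krt7, Krt8, Krt18 and Krt19 were above 10 on all 4 arrays. The smooth muscle genes Acta2, Myh11, Des and Cnn1 were above 12 on both GB tissue arrays and below 8 on both differentiated organoid arrays. Among pancreatic acinar markers, Cpa1, which encodes a digestive carboxypeptidase, was at 6.75 and 6.59 in the differentiated organoids, against 6.63 and 6.52 in GB tissue. Ctrb1, which encodes chymotrypsinogen, was at 9.90 and 9.77 in the differentiated organoids, against 13.48 and 13.69 in GB tissue (difference -3.75 ± 1.44, SE, limma adjusted p = 0.0598). It was far apart on the small intestine tissue arrays, which share the estimate of spread, and without either of those its adjusted p was 1.56e-06.

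Of the 19938 genes, 5710 (28.6%) were called higher and 2808 (14.1%) lower in differentiated organoids than in GB tissue at an adjusted p below 0.05 (limma, Benjamini-Hochberg over all genes), 42.7% in all. Over all genes the median difference came to 0.125. Large changes leaned the other way, with 281 genes higher and 646 lower by at least 2 log2 units, and 22 higher and 195 lower by at least 4. The arrays of the 2 groups did not overlap for 14575 genes (73.1%). The split depended on scaling. Centring each array on its median moved the median of all genes to 0.316 and gave 8801 higher and 2075 lower calls (80.9% of calls higher, against 67% as deposited). Removing 1 array moved the counts to 3798 higher and 1861 lower without differentiated organoid replicate 1, and to 3969 and 1885 without replicate 2. Without GB tissue replicate 1, 26% of genes were higher and 14.2% lower (40.2% in all), and without GB tissue replicate 2, 26% were higher and 15.7% lower (41.7%). With genes higher in liver tissue and acinar genes left out, 29.4% of 18138 genes were higher and 13% lower (42.5%). The 14 hepatocyte markers kept in that setting were all lower, with a median of -6.50.

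**Figure D1:**
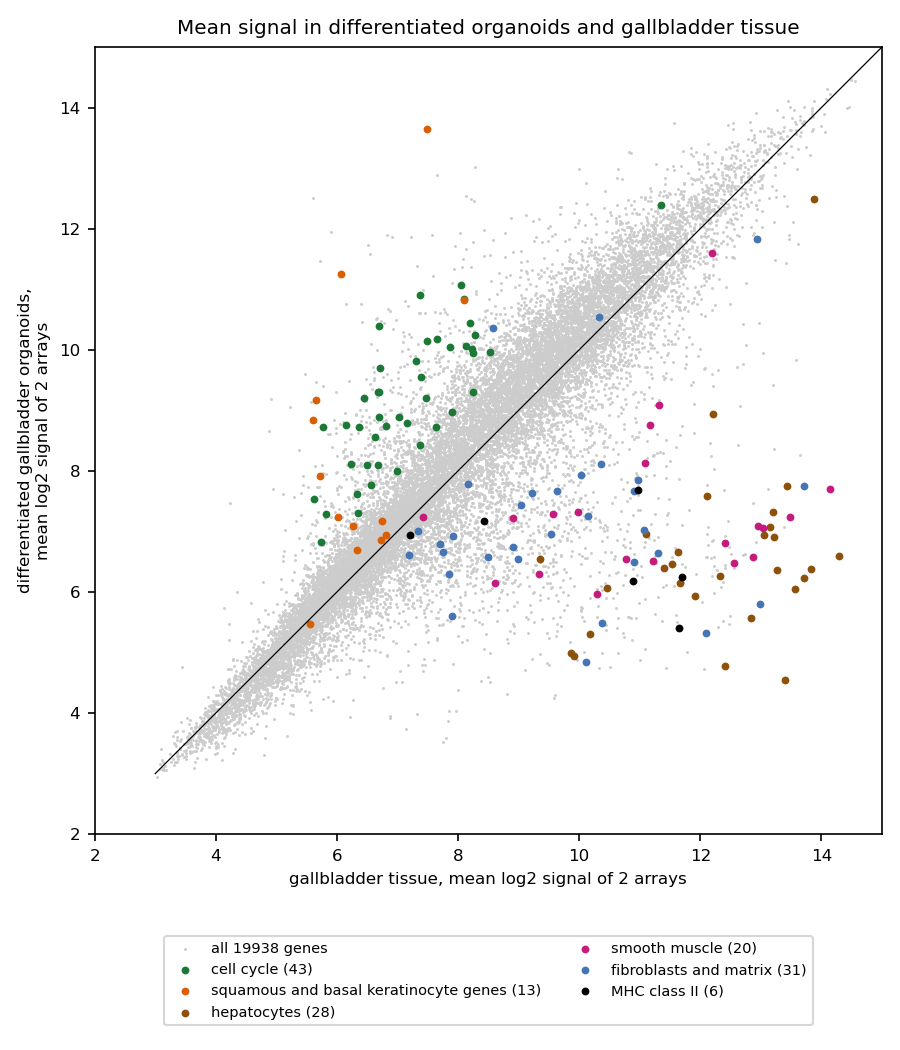
Mean log2 signal in differentiated gallbladder organoids (vertical axis) against GB tissue (horizontal axis), 1 point per gene, each the mean of 2 arrays, with members of 6 gene lists coloured. Hepatocyte, smooth muscle and MHC class II genes lie below the diagonal and cell cycle genes above it.

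The gene with the largest rise was Cdh17, which encodes a cadherin of intestinal epithelium. It was at 12.49 and 12.51 in the differentiated organoids, against 5.59 and 5.63 in GB tissue (6.89 ± 0.14, SE, limma adjusted p = 4.98e-09). Next came Sprr1a, a precursor protein of the cornified envelope, at 13.62 and 13.66 in the differentiated organoids, against 7.80 and 7.16 in GB tissue (6.16 ± 0.32, adjusted p = 4.78e-07). The other genes of the 15 largest rises were Cxcl5 (6.04), a neutrophil chemokine, Il1a (5.74), an alarm cytokine, Itga2 (5.24), a collagen-binding integrin, Krt20 (5.21), a keratin of mature gut epithelium, Ivl (5.19), which encodes involucrin, Clca3b, a member of the CLCA family of secreted proteins, Anxa8, an annexin, Slc4a11, a membrane transporter, Cldn4 (4.74), a tight junction claudin, Tnfrsf23, a decoy receptor for TRAIL, Tnip3, an inhibitor of NF-kB signalling, Msln (4.39), the surface protein mesothelin, and Serpinb9b (4.36). No array of one group overlapped the other for any of these, which was a condition of their choice. Serpinb9b, a serine protease inhibitor, was at 10.80 and 10.71 in the differentiated organoids, against 6.46 and 6.32 in GB tissue, with 7.08 and 7.42 in gallbladder organoids.

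Markers of gallbladder and bile duct epithelium were modestly higher in the differentiated organoids. Of 17 measured members 9 were called higher and 1 lower, against 28.6% and 14.1% of all genes, and their median difference was 0.55 against 0.125 over all genes. Krt7, a keratin of simple duct epithelium, was at 13.29 and 13.21 in the differentiated organoids, against 11.16 and 10.55 in GB tissue (2.40 ± 0.22, SE, limma adjusted p = 1.87e-05). Sox9, a transcription factor of bile duct and progenitor cells, was at 11.39 and 11.26 in the differentiated organoids, against 9.43 and 9.02 in GB tissue (2.10 ± 0.22, adjusted p = 5.06e-05). Epcam, an adhesion molecule of epithelial cells, was at 12.41 and 12.34 in the differentiated organoids, against 11.86 and 11.24 in GB tissue (0.82 ± 0.19, adjusted p = 0.00554). For these 3 genes every organoid array lay above both tissue arrays.

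Several defining genes of this epithelium did not pass. Krt19, another duct keratin, was at 13.68 on both differentiated organoid arrays, against 13.52 and 13.24 in GB tissue (0.30 ± 0.12, adjusted p = 0.0664). Its call depended on the setting. With arrays centred on their medians Krt19 passed (0.49, limma adjusted p = 0.00726), and leaving out 1 array moved its difference between 0.16 and 0.44. Sox17, the transcription factor needed to form the gallbladder, was at 10.05 and 10.27 in the differentiated organoids, against 10.66 and 10.23 in GB tissue (-0.28 ± 0.18, adjusted p = 0.241), and its groups overlapped. The single member called lower was Pkhd1, which encodes fibrocystin, a protein of the primary cilium of duct cells. It was at 8.63 and 8.68 in the differentiated organoids, against 9.72 and 9.98 in GB tissue (-1.19 ± 0.19, adjusted p = 0.000636). In a bulk sample, fewer cells of a type and less RNA per cell cannot be told apart, and epithelium made up an unknown share of GB tissue. When each array was centred on the mean of Epcam, Krt7 and Krt19, a scaling chosen after the data were seen, the median of all genes moved to -1.05 and 83.3% of genes were called, 2.06% higher and 81.2% lower. Under it this list gave 3 higher and 12 lower, and Epcam and Krt19 turned to -0.35 and -0.88. Of the centring genes Krt7 had the largest rise, and it weighed most in that shift. Without differentiated organoid replicate 1 the list had 4 higher calls, without replicate 2 it had 5, and without GB tissue replicate 2 it had 5 higher and 2 lower.

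**Figure D2:**
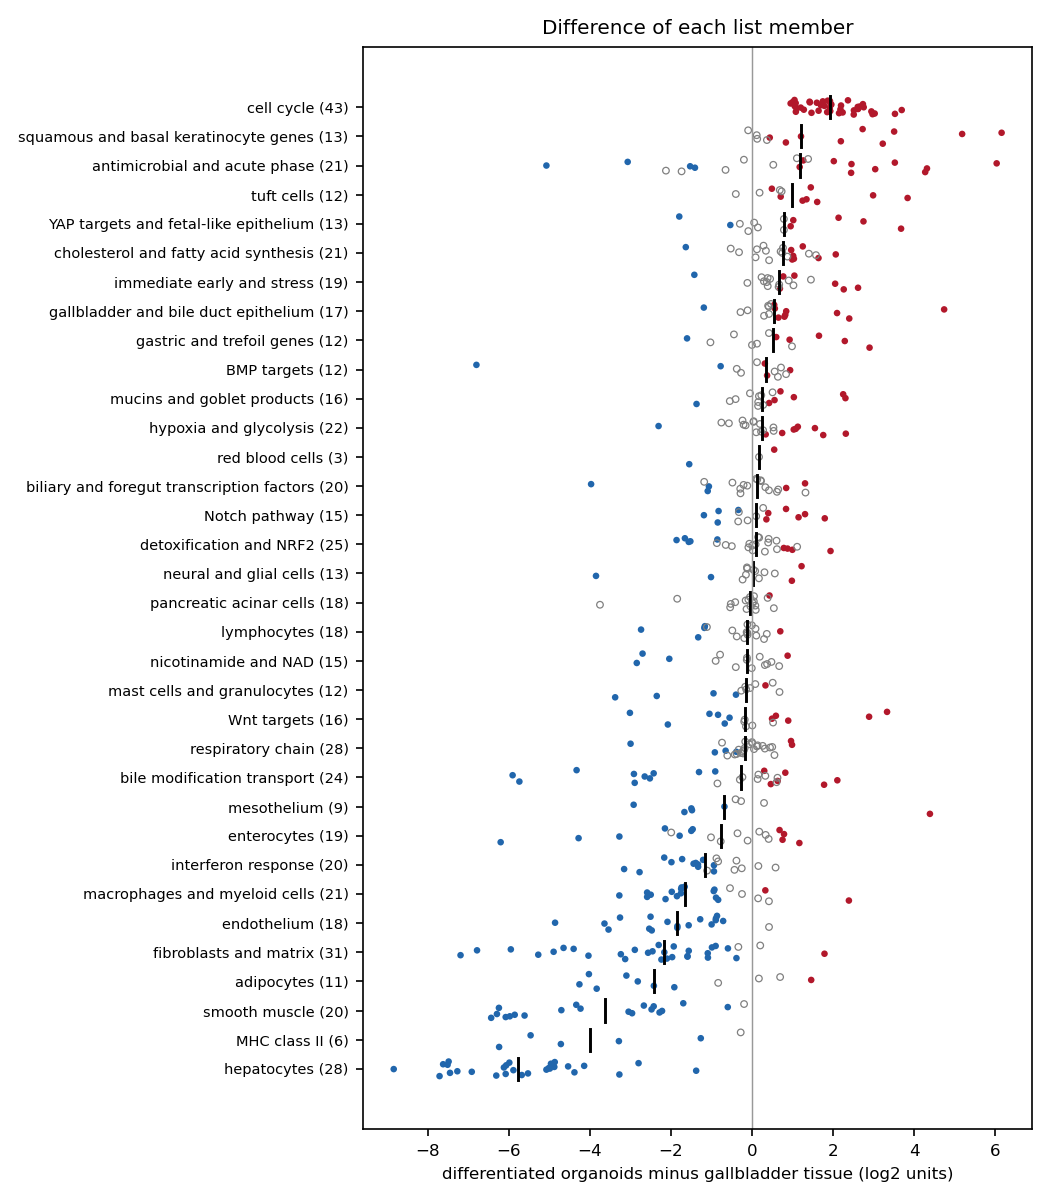
Differences between differentiated gallbladder organoids and GB tissue (horizontal axis, log2 units) for the measured members of 34 gene lists (vertical axis), 1 point per gene, filled where called and open where not, with a bar at each list's median. The cell cycle list lies wholly above 0 and the hepatocyte list wholly below it.

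Genes of cell division were higher throughout. All 43 measured cell cycle genes were called higher in differentiated organoids than in GB tissue, against 28.6% of all genes, with differences of 0.95 to 3.70 and a median of 1.92. Plk1, a mitotic kinase, was at 10.34 and 10.44 in the differentiated organoids, against 6.78 and 6.61 in GB tissue (3.70 ± 0.18, SE, limma adjusted p = 3.82e-07). Ccna2, the cyclin of DNA replication and entry into mitosis, was at 10.84 and 10.96 in the differentiated organoids, against 7.60 and 7.14 in GB tissue (3.53 ± 0.21, adjusted p = 1.11e-06). Mki67, a nuclear marker of dividing cells, was at 9.76 and 9.86 in the differentiated organoids, against 7.68 and 6.92 in GB tissue (2.51 ± 0.22, adjusted p = 1.58e-05). Ccnb2, a mitotic cyclin, and Top2a, a DNA topoisomerase, differed by 3.03 and 2.98. The smallest difference was that of Gins1 (0.95), part of the replication helicase. The groups did not overlap in any of these genes.

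No gene of this list was called between the organoid groups, in a test that may miss differences because its shared spread includes the tissues. Set directly against gallbladder organoids, 0 of the 43 genes were called (4.73% of all genes were called in that comparison), and the median difference was 0.14. Mki67 was at 9.13 and 9.21 in gallbladder organoids, and the difference of 0.64 ± 0.22 from them did not pass (adjusted p = 0.165). Against GB tissue, 41 to 43 genes were called higher when any 1 array was left out and for 42 with the 4 arrays alone. Centred on Epcam, Krt7 and Krt19, 27 of the 43 were higher and 0 lower (2.06% of all genes were higher under that scaling), with a median of 0.75.

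The 4 promoters below belong to cell cycle genes that moved together and are shown because each held both of a pair of motifs typical of genes switched on before mitosis. The motifs are CCAAT, bound by NF-Y, and TTTGAA, the core of the cell cycle genes homology region, and their letters are in capitals wherever they occur on either strand. Each stretch runs from 250 bases before to 50 bases after the gene start in RefSeq GRCm38.p6, read 5′ to 3′ on the strand of the gene. They lie at chr9:70421505-70421804 (minus strand) for Ccnb2, chr10:69352863-69353162 (minus strand) for Cdk1, which encodes the kinase that drives mitosis, chr7:122159185-122159484 (plus strand) for Plk1, and chr4:118437294-118437593 (minus strand) for Cdc20, an activator of the anaphase-promoting complex.
Ccnb2: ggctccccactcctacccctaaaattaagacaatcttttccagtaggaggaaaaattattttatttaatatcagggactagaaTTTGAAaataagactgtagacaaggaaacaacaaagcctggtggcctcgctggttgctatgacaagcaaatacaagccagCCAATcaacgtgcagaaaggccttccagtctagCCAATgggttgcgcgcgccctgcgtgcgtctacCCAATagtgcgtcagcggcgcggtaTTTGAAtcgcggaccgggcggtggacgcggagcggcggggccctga
Cdk1: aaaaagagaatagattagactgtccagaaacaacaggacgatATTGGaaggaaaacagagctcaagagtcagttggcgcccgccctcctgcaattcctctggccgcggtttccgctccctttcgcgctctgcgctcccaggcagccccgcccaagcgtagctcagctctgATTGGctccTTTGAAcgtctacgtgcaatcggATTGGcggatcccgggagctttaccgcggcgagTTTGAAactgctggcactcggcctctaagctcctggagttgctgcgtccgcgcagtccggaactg
Plk1: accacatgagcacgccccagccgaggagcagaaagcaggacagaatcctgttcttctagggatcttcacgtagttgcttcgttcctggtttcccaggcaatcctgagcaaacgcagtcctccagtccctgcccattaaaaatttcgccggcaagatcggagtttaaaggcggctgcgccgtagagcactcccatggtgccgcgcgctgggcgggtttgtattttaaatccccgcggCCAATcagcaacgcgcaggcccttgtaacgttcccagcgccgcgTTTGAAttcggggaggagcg
Cdc20: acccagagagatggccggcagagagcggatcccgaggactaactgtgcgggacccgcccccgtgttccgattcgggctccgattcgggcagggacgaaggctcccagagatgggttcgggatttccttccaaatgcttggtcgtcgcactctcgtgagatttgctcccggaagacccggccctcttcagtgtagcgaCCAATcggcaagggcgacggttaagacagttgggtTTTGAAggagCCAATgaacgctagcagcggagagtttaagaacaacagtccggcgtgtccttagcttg
Of the 43 cell cycle genes 33 had a promoter in the RefSeq table. CCAAT was found in 23 of these 33 (69.7%), against 37.4% of all 32544 promoters of that length. TTTGAA was found in 14 of 33 (42.4%), against 17.8% of all promoters. Cdk1 was at 10.51 and 10.36 in the differentiated organoids, against 8.39 and 8.01 in GB tissue (2.24 ± 0.13), and Cdc20 was at 8.89 and 8.88 in the differentiated organoids, against 7.22 and 6.84 in GB tissue (1.86 ± 0.14). A match describes these letters and does not show that a factor bound there.

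**Figure D3:**
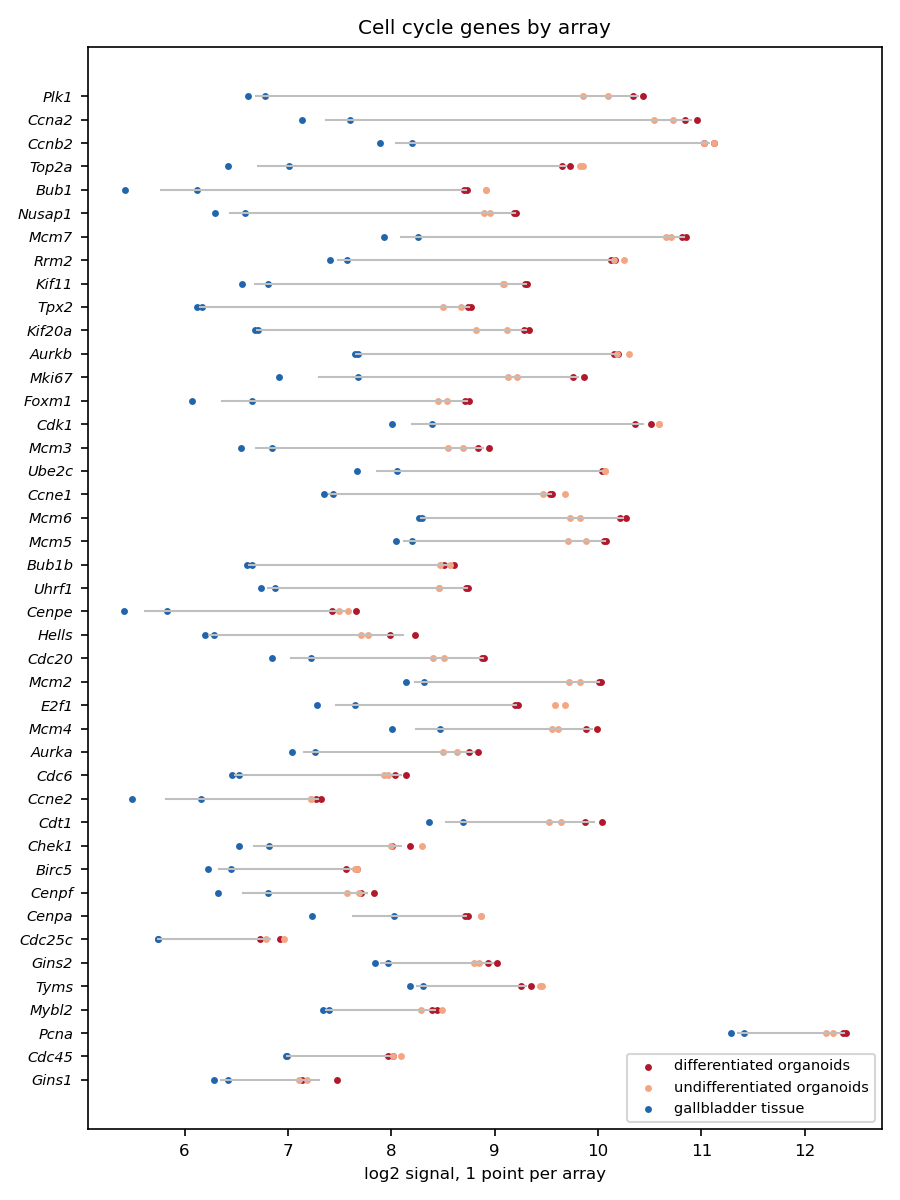
Log2 signal (horizontal axis) of 43 cell cycle genes (vertical axis) on each array of differentiated gallbladder organoids, gallbladder organoids (marked undifferentiated) and GB tissue, 1 point per array, with a grey line between the means of differentiated organoids and GB tissue. The organoid points of both kinds lie right of the GB tissue points, and the differences between differentiated organoids and GB tissue ran from 0.95 to 3.70.

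Genes of squamous epithelium were also higher. Of 13 measured members 9 were called higher and 0 lower, against 28.6% and 14.1% of all genes, with a median of 1.21, and these counts were the same whichever 1 array was left out. Ivl, which encodes involucrin of the cornified envelope, was at 11.24 and 11.27 in the differentiated organoids, against 6.00 and 6.14 in GB tissue (5.19 ± 0.16, SE, limma adjusted p = 2.45e-08). Dsg3, a desmosomal cadherin of stratified epithelium, was at 9.32 and 9.01 in the differentiated organoids, against 5.68 and 5.63 in GB tissue (3.51 ± 0.13, adjusted p = 7.14e-08). Krt4, a keratin of internal stratified epithelium, was at 8.77 and 8.90 in the differentiated organoids, against 5.62 and 5.59 in GB tissue (3.23 ± 0.23, adjusted p = 3.55e-06). In each the arrays of the groups were far apart.

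Defining genes of basal keratinocytes did not follow. Trp63, the transcription factor of basal cells, was at 6.94 and 6.76 in the differentiated organoids, against 6.79 and 6.68 in GB tissue (0.12 ± 0.11, adjusted p = 0.400). Krt14, a basal keratin, was at 7.06 and 6.83 in the differentiated organoids, against 6.83 and 6.80 in GB tissue (0.13 ± 0.12, adjusted p = 0.400). For both genes the arrays of the groups overlapped or nearly met. Dsg3 and Krt4 were the 2 members also called higher than in gallbladder organoids, by 2.50 and 2.17 (2.8% of all genes were higher there). Centred on Epcam, Krt7 and Krt19, the squamous list split into 6 higher and 5 lower.

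Antimicrobial and acute phase genes went both ways. Of 21 members 10 were called higher, against 28.6% of all genes, and 4 lower, against 14.1%, with a median of 1.18, and the lower share was near that of all genes. Reg3g, a secreted lectin that kills bacteria, was at 11.92 and 11.85 in the differentiated organoids, against 9.34 and 5.80 in GB tissue (4.32 ± 0.81, SE, limma adjusted p = 0.00191). The GB tissue replicates differed widely in it, and the difference was 2.55 without replicate 2 and 6.09 without replicate 1. With the 4 arrays alone Reg3g did not pass (limma adjusted p = 0.0639). Ltf, which encodes the iron-binding protein lactoferrin, was at 12.41 and 12.57 in the differentiated organoids, against 9.31 and 7.12 in GB tissue (4.28 ± 0.51, adjusted p = 0.00011). Ccl20, a chemokine of mucosal epithelium, was at 11.70 and 11.62 in the differentiated organoids, against 8.73 and 7.54 in GB tissue (3.53 ± 0.34). Each was higher on both organoid arrays than on either tissue array.

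The 4 lower members included Hp, which encodes haptoglobin made by the liver, at 6.39 and 6.52 in the differentiated organoids, against 9.95 and 13.11 in GB tissue (-5.07 ± 0.74). They also included Lyz2, the lysozyme of macrophages (-3.07). Hp averaged 13.88 in liver tissue and Lyz2 averaged 12.33. With genes higher in liver tissue left out, the list had 10 higher and 1 lower of 16, and centred on Epcam, Krt7 and Krt19 it had 7 higher and 6 lower of 21. Set directly against gallbladder organoids, 5 members were lower and 0 higher, beside 1.93% and 2.8% of all genes. Among those 5, Reg3b was lower by 3.29 and Chil1, a chitinase-like lectin, by 3.67. Chil1 was at 8.51 and 8.58 in the differentiated organoids and at 12.34 and 12.07 in gallbladder organoids, with 6.61 and 6.44 in GB tissue, so the differentiated organoids stood between the other groups.

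Transport genes that serve the concentration of bile included some of the largest losses outside liver genes. Of 24 members 10 were called lower and 6 higher, against 14.1% and 28.6% of all genes, with a median of -0.27. Car4, a membrane carbonic anhydrase, was at 6.40 and 6.33 in the differentiated organoids, against 12.15 and 12.39 in GB tissue (-5.91 ± 0.20, SE, limma adjusted p = 4.97e-08). Slc26a3, a chloride-bicarbonate exchanger of the apical membrane, was at 6.93 and 6.54 in the differentiated organoids, against 12.42 and 12.54 in GB tissue (-5.74 ± 0.17, adjusted p = 1.48e-08). Slc9a3, the sodium-proton exchanger that works beside it in salt uptake, was at 9.82 and 9.60 in the differentiated organoids, against 13.19 and 12.02 in GB tissue (-2.89 ± 0.36, adjusted p = 0.00014). None of these was near its tissue level on either organoid array, and in liver tissue they averaged 6.60, 5.30 and 5.36.

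Aqp1, a water channel, was at 10.36 and 10.53 in the differentiated organoids, against 13.12 and 12.81 in GB tissue (-2.52 ± 0.35, adjusted p = 0.000298). Gpbar1, the bile acid receptor of the cell surface, was at 7.78 and 7.59 in the differentiated organoids, against 9.15 and 8.83 in GB tissue (-1.31 ± 0.12, adjusted p = 2.50e-05). Cckar, the receptor for cholecystokinin and a gene of gallbladder muscle, was at 6.86 and 6.64 in the differentiated organoids, against 11.38 and 10.77 in GB tissue (-4.33 ± 0.29, adjusted p = 2.38e-06). Abcg5, which with Abcg8 exports cholesterol into bile, was lower by 2.91, and it averaged 11.59 in liver tissue. With genes higher in liver tissue left out, 6 of 19 members were higher and 6 lower.

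Cftr and Slc12a2 were among the 6 higher members. Cftr, the cAMP-regulated chloride channel, was at 8.45 and 8.35 in the differentiated organoids, against 7.01 and 6.23 in GB tissue (1.78 ± 0.21, adjusted p = 0.000103). Slc12a2, the basolateral cotransporter that loads cells with chloride, was at 12.09 on both differentiated organoid arrays, against 10.29 and 9.68 in GB tissue (2.11 ± 0.24, adjusted p = 8.74e-05). For both, each organoid array lay above each tissue array. Slc10a2, the apical bile acid transporter, was at 10.89 and 10.74 in the differentiated organoids, against 10.46 and 9.95 in GB tissue (0.61 ± 1.32, adjusted p = 0.742). Its SE was large because the small intestine tissue arrays were at 11.94 and 6.18.

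Few of these genes were called between the organoid groups. Set directly against gallbladder organoids, 3 of the 24 were called higher and 0 lower, against 2.8% and 1.93% of all genes. Aqp1 was higher by 2.13 ± 0.35 (adjusted p = 0.00667), with 8.38 and 8.25 in gallbladder organoids. Slc26a3 was higher by 1.52 ± 0.17 (adjusted p = 0.000639), with 5.30 and 5.13 in gallbladder organoids. Both remained well below GB tissue. Car4, at 6.18 and 6.44 in gallbladder organoids, differed by 0.05 ± 0.20. Without differentiated organoid replicate 1 or without GB tissue replicate 1, the transport list had 3 higher calls against GB tissue. Centred on Epcam, Krt7 and Krt19 it gave 2 higher and 17 lower.

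**Figure D4:**
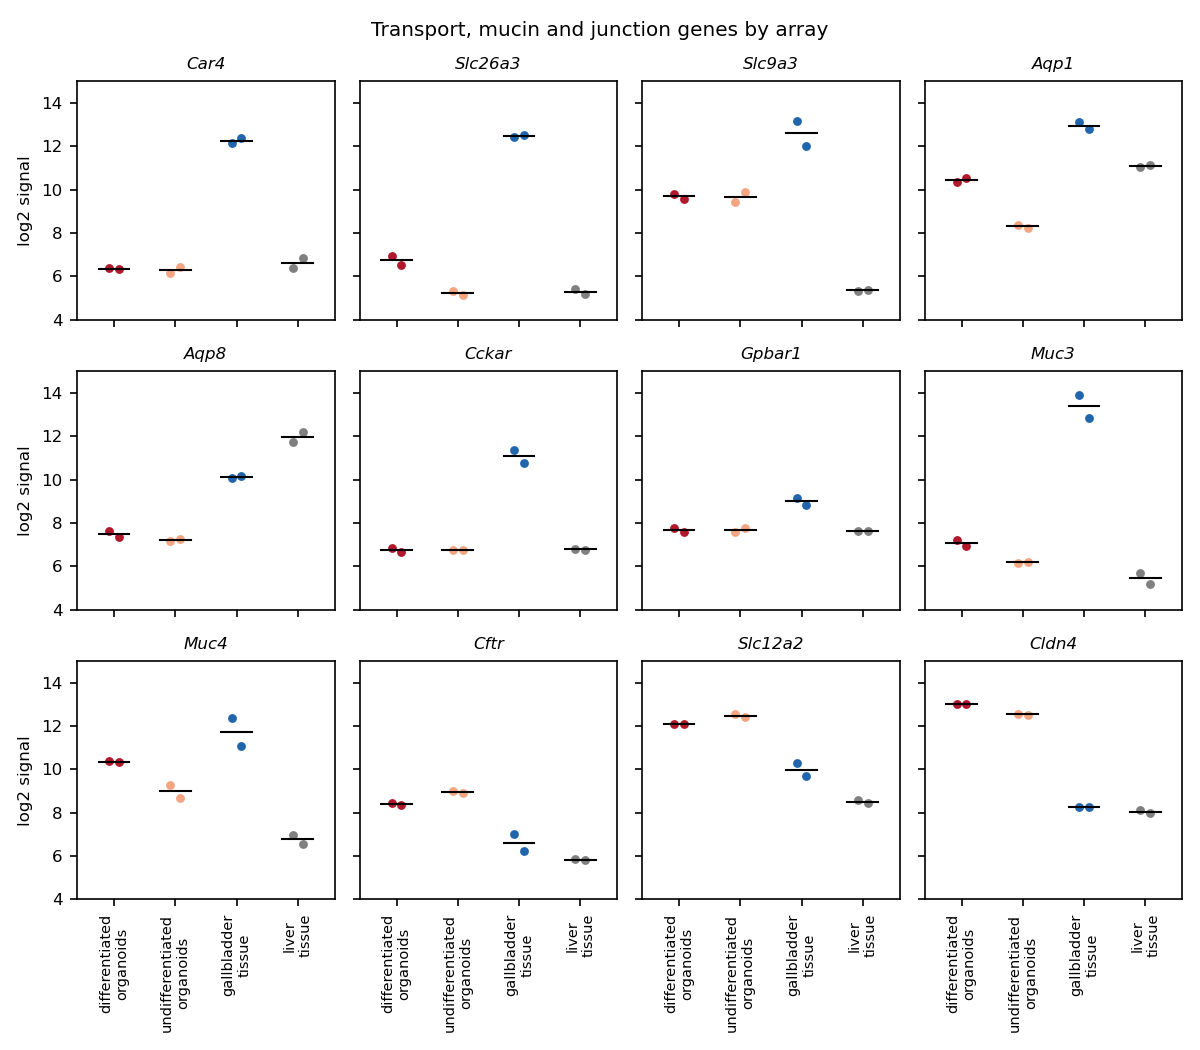
Log2 signal (vertical axis) of 12 genes of bile modification, mucus and the epithelium on each array of differentiated gallbladder organoids, gallbladder organoids (marked undifferentiated), GB tissue and liver tissue, 1 point per array with a bar at the mean. Car4 was near 6 in the differentiated organoids and near 12 in GB tissue, whereas Cftr, Slc12a2 and Cldn4 were higher in the organoids.

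Mucin and goblet cell genes had 6 of 16 members higher and 1 lower, against 28.6% and 14.1% of all genes, with a median of 0.25, so the count was near that of all genes. Muc1, a membrane mucin of bile duct and gallbladder, was at 13.78 and 13.82 in the differentiated organoids, against 13.83 and 13.47 in GB tissue (0.15 ± 0.40, SE, limma adjusted p = 0.791), and its groups overlapped. Muc4, a membrane mucin and the member called lower, was at 10.36 and 10.33 in the differentiated organoids, against 12.35 and 11.08 in GB tissue (-1.37 ± 0.37, adjusted p = 0.0142). The Muc4 call was lost without either differentiated organoid array or without GB tissue replicate 1, with an adjusted p of up to 0.0838. Higher members included Muc20 (2.31) and Clca1 (2.25), a goblet cell secretion product. Without either differentiated organoid array or GB tissue replicate 2 the list had 2 higher calls, and centred on Epcam, Krt7 and Krt19 it gave 2 higher and 11 lower. Muc3, a membrane mucin of absorptive cells, is not in that list or its counts. It was one of the largest losses outside liver genes, at 7.20 and 6.95 in the differentiated organoids, against 13.92 and 12.84 in GB tissue (-6.30 ± 0.44, adjusted p = 3.18e-06).

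Tff3, a trefoil peptide of mucus, was at 12.83 and 12.69 in the differentiated organoids, against 12.30 and 11.15 in GB tissue (1.03 ± 0.36, adjusted p = 0.0403). This call was lost in several settings, among them without GB tissue replicate 2, where the difference was 0.46 (adjusted p = 0.275). Tff3 was at 9.33 and 9.64 in gallbladder organoids, and the rise of 3.28 ± 0.36 over them was larger (adjusted p = 0.000612). Gastric and trefoil genes had 5 of 12 members higher and 1 lower, against 28.6% and 14.1% of all genes, with a median of 0.51. Without differentiated organoid replicate 1 or without GB tissue replicate 2 fewer of them were called higher. Tff1, a trefoil peptide of stomach pit cells, was at 10.56 and 10.66 in the differentiated organoids, against 7.54 and 7.88 in GB tissue (2.90 ± 0.19, adjusted p = 1.86e-06). Anxa10, an annexin of stomach epithelium, was at 12.49 and 12.34 in the differentiated organoids, against 10.55 and 9.69 in GB tissue (2.29 ± 0.24, adjusted p = 4.35e-05), with 8.52 and 8.54 in gallbladder organoids. Tff2, a trefoil peptide of stomach neck cells, was at 12.09 and 12.00 in the differentiated organoids, against 11.73 and 10.39 in GB tissue (0.99 ± 0.92, adjusted p = 0.417), with 7.72 and 7.89 in gallbladder organoids. Tff2 and Tff3 were thus far nearer to tissue in the differentiated organoids than in gallbladder organoids. Pgc, which encodes a pepsinogen, was lower by 1.60, a call lost without either differentiated organoid array or GB tissue replicate 1. Centred on Epcam, Krt7 and Krt19 the gastric list gave 2 higher and 6 lower.

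Tuft cell genes were higher than in GB tissue and higher than in gallbladder organoids. Tuft cells are rare chemosensory cells of gut and bile duct epithelium. Of 12 members 8 were called higher than in GB tissue and 0 lower, against 28.6% and 14.1% of all genes, with a median of 0.99. Against gallbladder organoids 8 were also called higher and 0 lower (2.8% of all genes were higher there), with a median of 1.36. Rgs13, a regulator of G protein signalling, was at 10.75 and 10.48 in the differentiated organoids, against 7.49 and 7.76 in GB tissue (2.99 ± 0.35, SE, limma adjusted p = 0.000101), with 5.07 and 4.78 in gallbladder organoids. Gnat3, the taste G protein gustducin, was at 9.26 and 8.86 in the differentiated organoids, against 5.33 and 5.11 in GB tissue (3.84 ± 0.29, adjusted p = 6.02e-06), with 4.44 and 4.63 in gallbladder organoids. Dclk1, a kinase used to mark tuft cells, was at 9.78 and 9.52 in the differentiated organoids, against 7.73 and 8.35 in GB tissue (1.61 ± 0.27, adjusted p = 0.00102), with 7.46 and 7.40 in gallbladder organoids. The differentiated organoids were highest of the 3 groups in each of these. The list averaged 8.47 and 8.25 in the differentiated organoids. In organoids that were not differentiated it averaged 8.28 and 7.94 for liver and 7.99 and 7.54 for small intestine. Against the organoid-minus-tissue change of liver, 1 member was higher and 2 lower (18.2% and 15.6% of all genes), with a median of 0.05. Against that of the small intestine, 7 were higher and 0 lower (18.8% and 12.9% of all genes).

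Pou2f3, the transcription factor needed for tuft cells to form, was higher than GB tissue by 1.35 ± 0.14 (adjusted p = 5.13e-05) and than gallbladder organoids by 1.38 ± 0.14 (adjusted p = 0.000451). Trpm5, the cation channel of their taste cascade, was higher than GB tissue by 1.25 ± 0.28 (adjusted p = 0.00547) and than gallbladder organoids by 2.14 ± 0.28 (adjusted p = 0.00182). The list gave 7 to 9 higher calls when 1 array was left out. With array weights it gave 6, and centred on Epcam, Krt7 and Krt19 it gave 2 higher and 3 lower.

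**Figure D5:**
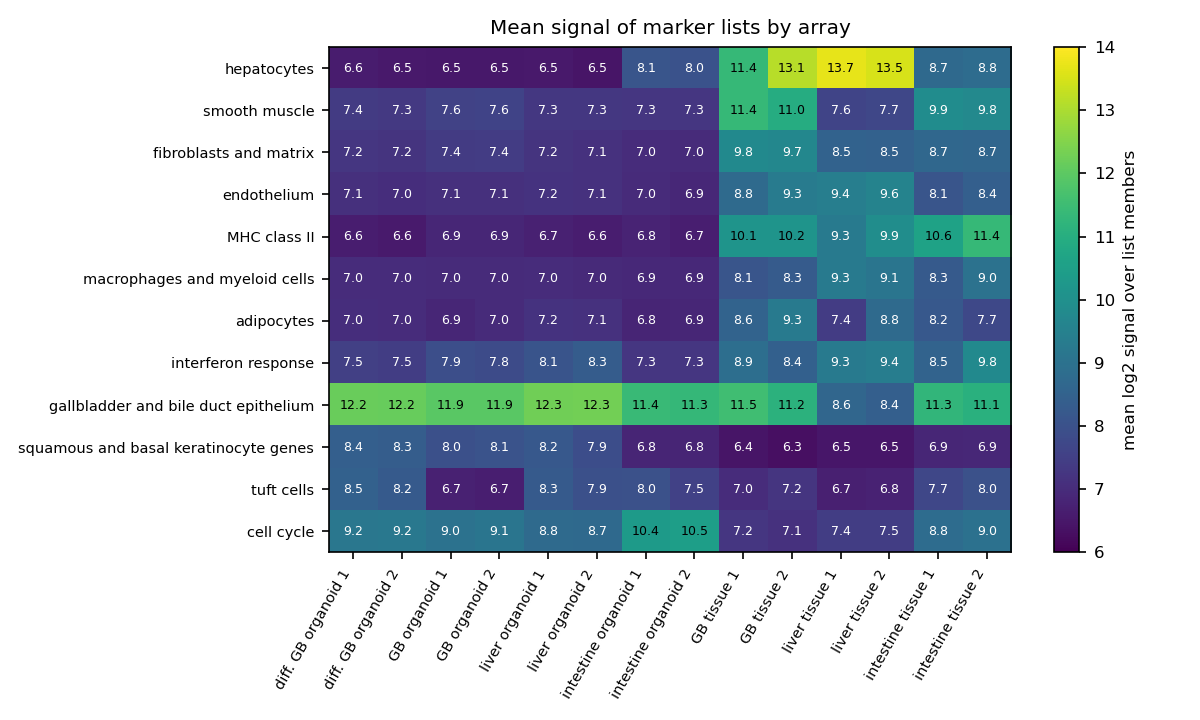
Mean log2 signal (colour) of 12 gene lists (vertical axis) on each of the 14 arrays (horizontal axis). Tuft cell genes averaged 8.47 and 8.25 in differentiated gallbladder organoids, against 7.01 and 7.22 in GB tissue, and hepatocyte genes averaged 6.61 and 6.55 in differentiated organoids, against 11.36 and 13.13 in GB tissue.

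Genes of the pathways that the withdrawn factors act on were mixed. Of 16 Wnt target genes 5 were higher and 6 lower than in GB tissue, against 28.6% and 14.1% of all genes. Their median was -0.16 and turned to 0.03 when arrays were centred on their medians. Lgr5, an R-spondin receptor that marks gut stem cells, was at 7.28 and 7.17 in the differentiated organoids, against 6.54 and 7.90 in GB tissue (0.01 ± 0.40, SE, limma adjusted p = 0.988, and -1.16 when centred on Epcam, Krt7 and Krt19). It was at 10.56 and 10.18 in gallbladder organoids, and differentiated organoids were lower than those by 3.15 on the log2 scale (adjusted p = 0.00142). Axin2, a feedback inhibitor of Wnt signalling, was at 7.98 and 7.74 in the differentiated organoids, against 7.97 and 8.04 in GB tissue (-0.15 ± 0.10, adjusted p = 0.277), with 8.55 and 8.41 in gallbladder organoids. The differentiated organoids thus lay within or next to the range of the tissue arrays for both genes. Most Wnt targets were not called between the organoid groups. Against gallbladder organoids 0 of the 16 were higher and 2 lower, beside 2.8% and 1.93% of all genes, with a median of -0.08.

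Other Wnt targets differed strongly. Sox4, a transcription factor of progenitor cells, was at 10.02 and 9.97 in the differentiated organoids, against 6.41 and 6.91 in GB tissue (3.33 ± 0.15, adjusted p = 2.31e-07). Myc, a driver of growth, was higher by 2.89 ± 0.45. Dkk3, a secreted protein related to Wnt inhibitors, was at 6.90 and 6.79 in the differentiated organoids, against 10.16 and 9.56 in GB tissue (-3.01 ± 0.19), and Nkd1, a Wnt feedback inhibitor, was lower by 2.08. Without either differentiated organoid array the list had 3 lower calls. BMP targets had 3 higher and 2 lower of 12, against 28.6% and 14.1% of all genes. The largest change among them was that of Hamp, the hepcidin gene (-6.8), which was also among the 15 largest losses. With genes higher in liver tissue left out, 3 were higher and 1 lower of 9, against 29.4% and 13% of all genes. Among the higher was Smad7, an inhibitor of the pathway (0.94 ± 0.17, but -0.23 when centred on Epcam, Krt7 and Krt19). Against gallbladder organoids 0 of the 12 BMP targets were called, beside 4.73% of all genes, with a median of -0.04. Notch genes had 6 higher and 4 lower of 15, against 28.6% and 14.1% of all genes, with the ligand Jag1 higher by 1.80 and Dll4, a ligand of vessels, lower by 1.19. Without either differentiated organoid array the higher calls numbered 2 for Notch genes and 1 for BMP targets, and without either gallbladder organoid array 3 for Notch genes. YAP targets had 5 higher and 2 lower of 13, against 28.6% and 14.1% of all genes. Ankrd1, a YAP target also found in stretched muscle, was at 10.71 and 10.90 in the differentiated organoids, against 7.08 and 7.16 in GB tissue (3.68 ± 0.20, adjusted p = 8.01e-07).

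In metabolic lists the counts were nearer to the 28.6% of all genes called higher and the 14.1% called lower. Hypoxia and glycolysis genes had 8 higher and 1 lower of 22, led by Hk2, which encodes a hexokinase (2.32 ± 0.26), and without either differentiated organoid array 4 were higher. The lower member was Bnip3, a mitochondrial protein of hypoxia, which was below its GB tissue level on both organoid arrays (-2.31 ± 0.45, SE, limma adjusted p = 0.00243). With the 4 arrays alone Bnip3 did not pass (adjusted p = 0.0502). Genes of cholesterol and fatty acid synthesis had 7 higher and 1 lower of 21. That count depended on single arrays, with 4 higher without GB tissue replicate 1, 13 without replicate 2, 4 without differentiated organoid replicate 1 and 3 without replicate 2, and the list mean was 11.17 and 11.15 in the differentiated organoids, against 9.96 and 11.04 in GB tissue. Lss, which makes lanosterol, was at 11.08 and 11.06 in the differentiated organoids, against 8.21 and 9.79 in GB tissue (2.07 ± 0.43, adjusted p = 0.0036). The Lss call was lost with the 4 arrays alone (limma adjusted p = 0.0569). It was also lost when centred on Epcam, Krt7 and Krt19 (0.89, adjusted p = 0.103). Of 15 nicotinamide and NAD genes 1 was higher and 3 lower, and of 28 respiratory chain genes 2 were higher and 4 lower, so most members of both did not pass. Nnmt, a methyltransferase of nicotinamide with high levels in liver, was at 6.89 and 7.04 in the differentiated organoids, against 8.68 and 10.94 in GB tissue (-2.84 ± 0.54). Its call was lost with the 4 arrays alone (limma adjusted p = 0.0609).

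Detoxification genes had 4 higher and 5 lower of 25 against GB tissue, with a median of 0.09 near that of all genes. Against gallbladder organoids 9 were higher and 1 lower, beside 2.8% and 1.93% of all genes, with a median of 0.57. Cyp2f2, a cytochrome P450 of airway and liver, was at 11.92 and 11.59 in the differentiated organoids, against 13.28 and 13.95 in GB tissue (-1.86 ± 0.24, SE, limma adjusted p = 0.000195), with 7.09 and 7.29 in gallbladder organoids. Aldh1a1, which makes retinoic acid, was at 11.18 and 11.03 in the differentiated organoids, against 12.30 and 13.23 in GB tissue (-1.66 ± 0.26), with 8.65 and 8.33 in gallbladder organoids. In liver tissue they averaged 13.96 and 12.86. Cyp2c65, a cytochrome P450, averaged 5.71 in liver tissue. It was at 12.11 and 12.01 in the differentiated organoids, against 11.83 and 11.08 in GB tissue (0.61 ± 0.38, adjusted p = 0.220), with 6.66 and 7.01 in gallbladder organoids. Sult1c2, a sulfotransferase, was at 13.00 and 13.03 in the differentiated organoids, against 12.79 and 12.44 in GB tissue (0.40 ± 0.43, adjusted p = 0.479), with 9.62 and 9.65 in gallbladder organoids. For Cyp2c65 and Sult1c2 the differentiated organoid and tissue arrays were close, and both gallbladder organoid arrays were below all of them.

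Genes of the muscular and connective wall were lower. Of 20 smooth muscle genes 19 were lower and 0 higher, against 14.1% and 28.6% of all genes, with a median of -3.64, and 19 were lower whichever 1 array was left out. Acta2, smooth muscle actin, was at 7.71 and 7.69 in the differentiated organoids, against 14.26 and 14.01 in GB tissue (-6.44 ± 0.16, SE, limma adjusted p = 8.21e-09). Values near 14 were close to the top of the array's scale, so such differences may be understated. Des, the muscle filament desmin, and Myh11, smooth muscle myosin, were lower by 6.29 and 5.98. Of 31 fibroblast and matrix genes 28 were lower and 1 higher, with a median of -2.16. Dcn, the collagen-binding proteoglycan decorin, was at 5.71 and 5.89 in the differentiated organoids, against 13.04 and 12.94 in GB tissue (-7.19 ± 0.15, adjusted p = 5.62e-09), and Col1a1, a chain of type I collagen, was at 8.20 and 8.04 in the differentiated organoids, against 10.40 and 10.31 in GB tissue (-2.23 ± 0.12). The exception was Fbln2, a matrix protein of basement membranes, at 10.38 and 10.34 in the differentiated organoids, against 8.43 and 8.71 in GB tissue (1.79 ± 0.17).

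Endothelial and MHC class II genes were mostly lower, against 14.1% of all genes called lower. Of 18 endothelial genes 17 were lower and 0 higher, with Emcn, a sialomucin of veins and capillaries, lower by 4.86. Of 6 MHC class II genes 5 were lower. H2-Aa, a chain of the antigen-presenting molecule, was at 5.58 and 5.22 in the differentiated organoids, against 11.61 and 11.68 in GB tissue (-6.24 ± 0.34, adjusted p = 7.40e-07), and Cd74, its invariant chain, was lower by 5.46. Macrophage and myeloid genes had 15 lower and 2 higher of 21, but 9 lower without either differentiated organoid array or without GB tissue replicate 2, and 5 lower of 10 with genes higher in liver tissue left out. C1qb, a complement subunit made by macrophages, was lower by 3.27, whereas Cd14, the lipopolysaccharide coreceptor, was at 11.73 and 11.82 in the differentiated organoids, against 9.79 and 8.99 in GB tissue (2.39 ± 0.36, adjusted p = 0.000495). Adipocyte markers had 7 lower and 1 higher of 11 and mesothelial markers 5 lower and 1 higher of 9. Most lymphocyte genes did not pass, with 4 lower and 1 higher of 18 and a median of -0.12, and mast cell and granulocyte genes had 4 lower and 1 higher of 12 and 7 that did not pass. Cpa3, a mast cell protease, was at 5.07 and 5.04 in the differentiated organoids, against 9.34 and 7.51 in GB tissue (-3.38 ± 0.44).

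The remaining lists were mixed or mostly did not pass, beside 28.6% of all genes called higher and 14.1% called lower. Enterocyte genes had 7 lower and 4 higher of 19, with Fabp1, a fatty acid binding protein of gut and liver, lower by 6.20 and Vil1, the actin bundler villin of microvilli, higher by 1.17 ± 0.20. With genes higher in liver tissue left out they had 4 lower and 4 higher of 14, and without either differentiated organoid array 2 were higher. Transcription factors of the biliary tract and foregut had 2 higher and 3 lower of 20, among them Foxf1, a factor of gut mesenchyme, lower by 3.97. Without GB tissue replicate 1 that list had 7 lower, and without replicate 2 it had 5 higher. Immediate early and stress genes had 6 higher and 1 lower of 19. Fosl1, a Fos family factor, was at 9.58 and 9.42 in the differentiated organoids, against 6.85 and 6.92 in GB tissue (2.62 ± 0.14, limma adjusted p = 5.02e-07). That list had 2 higher without GB tissue replicate 2 or without differentiated organoid replicate 2, 3 without replicate 1, and 11 when a liver tissue array was left out. Neural and glial genes had 2 higher and 2 lower of 13, red blood cell genes 1 higher and 1 lower of 3, and pancreatic acinar genes 1 higher and 0 lower of 18. Single arrays moved such small counts. Without either small intestine tissue array acinar genes had 3 higher and 4 lower, and respiratory chain genes 5 higher and 7 lower. Without either differentiated organoid array or GB tissue replicate 2, lymphocyte genes had 2 lower and 0 higher.

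Liver genes led the lower list. All 28 hepatocyte markers were lower in differentiated organoids, against 14.1% of all genes, with a median of -5.79, and 27 or 28 were lower whichever 1 array was left out. Serpina1c, an alpha-1 antitrypsin gene, had the largest fitted loss, at 4.65 and 4.46 in the differentiated organoids, against 12.60 and 14.19 in GB tissue (-8.84 ± 0.43, SE, limma adjusted p = 3.43e-07). Alb, the gene of serum albumin, was at 6.67 and 6.50 in the differentiated organoids, against 14.30 on both GB tissue arrays (-7.71 ± 0.45, adjusted p = 9.89e-07), and averaged 14.35 in liver tissue. As values above 14 were close to the top of the scale, these differences may be understated and their order is uncertain. The smallest change was that of Ttr, a thyroid hormone carrier, at 12.52 and 12.47 in the differentiated organoids, against 13.61 and 14.13 in GB tissue (-1.38 ± 0.19), with 10.15 and 10.45 in gallbladder organoids. Serpina1, Cyp, Reg3, Sprr, Ifit, Oas and H2 genes have close relatives whose RNA may reach the same probes, so the share of each member is uncertain.

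Many interferon-response genes were lower. Of 20 members 12 were lower and 0 higher, against 14.1% and 28.6% of all genes, with a median of -1.16, and 8 to 14 were lower when 1 array was left out. Ifit1, an antiviral RNA-binding protein, was at 5.87 and 5.68 in the differentiated organoids, against 8.98 and 8.12 in GB tissue (-2.77 ± 0.58, SE, limma adjusted p = 0.00353), with 8.10 and 7.95 in gallbladder organoids. Gbp3, an interferon-induced GTPase, was at 6.46 and 6.40 in the differentiated organoids, against 8.32 and 7.98 in GB tissue (-1.72 ± 0.29, adjusted p = 0.00108). Stat2, a transcription factor of the type I interferon response, was at 8.34 and 8.45 in the differentiated organoids, against 9.64 and 9.92 in GB tissue (-1.39 ± 0.32, adjusted p = 0.00597). No array overlapped in these 3 genes. Oas2, an enzyme that senses double-stranded RNA, differed widely between tissue arrays, at 7.02 and 7.03 in the differentiated organoids, against 11.75 and 8.61 in GB tissue (-3.15 ± 0.78, adjusted p = 0.00866). Against gallbladder organoids 0 of the 20 genes were called, beside 4.73% of all genes, and Ifit1 was lower by 2.25 with a limma adjusted p of 0.0592. Most endothelial, MHC class II and macrophage markers were also lower, as given above, whereas most lymphocyte and mast cell and granulocyte markers did not pass. The interferon list averaged 9.26 and 9.39 in liver tissue, against 8.88 and 8.44 in GB tissue. With genes higher in liver tissue left out, 8 of 14 members were lower, against 13% of all genes. The part of immune, endothelial and liver cells in this list was not tested.

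The promoters of 3 of these genes are shown because the members moved together and each held the core of the interferon-stimulated response element, searched on both strands as TTTC, any 2 bases and TTTC, and given in capitals. Each again runs from 250 bases before to 50 after the gene start in RefSeq GRCm38.p6, 5′ to 3′ on the strand of the gene. They lie at chr19:34640639-34640938 for Ifit1, chr3:142559794-142560093 for Gbp3 (1 of 2 promoters listed) and chr10:128270248-128270547 for Stat2, all on the plus strand.
Ifit1: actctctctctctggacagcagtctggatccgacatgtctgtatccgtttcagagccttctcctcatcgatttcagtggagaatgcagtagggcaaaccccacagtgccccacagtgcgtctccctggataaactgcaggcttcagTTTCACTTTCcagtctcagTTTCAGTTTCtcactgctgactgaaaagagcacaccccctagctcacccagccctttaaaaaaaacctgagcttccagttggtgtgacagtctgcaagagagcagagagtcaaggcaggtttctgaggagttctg
Gbp3: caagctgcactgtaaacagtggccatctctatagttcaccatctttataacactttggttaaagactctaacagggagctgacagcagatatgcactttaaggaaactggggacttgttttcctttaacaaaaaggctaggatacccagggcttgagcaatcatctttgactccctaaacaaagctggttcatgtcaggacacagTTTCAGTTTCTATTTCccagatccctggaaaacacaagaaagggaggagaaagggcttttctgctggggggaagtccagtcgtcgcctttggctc
Stat2: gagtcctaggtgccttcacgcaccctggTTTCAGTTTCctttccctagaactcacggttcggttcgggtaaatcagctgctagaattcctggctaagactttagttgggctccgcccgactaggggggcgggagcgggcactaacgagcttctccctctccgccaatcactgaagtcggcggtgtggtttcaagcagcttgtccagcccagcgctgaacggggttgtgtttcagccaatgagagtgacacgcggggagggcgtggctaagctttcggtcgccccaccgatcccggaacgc
This core was found in 10 of the 16 interferon-response genes with a promoter in the table (62.5%), against 3.45% of all promoters. The CArG box of serum response factor was found in 1 of 16 smooth muscle genes (6.25%), Myl9, against 1.64% of all promoters. The HNF1 site was found in 0 of 22 hepatocyte genes with a promoter, against 0.0307% of all promoters, which says only that its letters are not in these windows.

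The comparison of differentiated organoids with gallbladder organoids called 943 of 19938 genes (4.73%), 559 higher (2.8%) and 384 lower (1.93%). More genes were called with array weights or with the compared arrays alone, as listed at the end. This comparison shares the differentiated organoid arrays with that against GB tissue, so the values of each are given side by side only. Rgs13 differed by 5.69 from gallbladder organoids and by 2.99 from GB tissue. Anxa10 differed by 3.89 from gallbladder organoids and by 2.29 from GB tissue. Car4 differed by 0.05 from gallbladder organoids and by -5.91 from GB tissue.

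The change between organoids and tissue was also set against those in the other organs, with the caveat that liver and small intestine organoids were not differentiated, so organ and medium cannot be told apart. The difference of differences was called for 6723 genes (33.7%) against liver and for 6321 genes (31.7%) against small intestine. By direction, 18.2% of all genes were higher and 15.6% lower against liver, and 18.8% higher and 12.9% lower against small intestine. Of the 43 cell cycle genes 22 changed more in the gallbladder than in the liver and 0 less, and 18 changed more than in the small intestine and 2 less. Of the 28 respiratory chain genes 19 differed upward from liver and 1 downward. Acta2 fell by 4.24 log2 units more in the gallbladder than in the liver (± 0.23, SE, limma adjusted p = 2.98e-06) and by 1.00 ± 0.23 more than in the small intestine (adjusted p = 0.00878). Acta2 was at 7.36 and 7.22 in liver organoids, against 9.32 and 9.65 in liver tissue.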

How the data were processed

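RNA from 14 samples was measured on Affymetrix gene arrays. The deposited values were log2 probe set signals that the authors had summarised by RMA (robust multi-array average), per the submitters' processing notes, whose version is not given in the sources used here. RMA brings the arrays to 1 distribution of probe intensities, so a difference is relative to all genes of an array, and large differences at the top and bottom of the scale are compressed. No raw signals or detection calls were used, so the background level of each array is unknown. Precision is limited by having 2 arrays in each group.

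Of 35556 probe sets, 21789 had 1 gene symbol, 1621 had several and 12146 were unlisted or had none. Those with several or none were left out. For 999 genes with more than 1 probe set, that with the highest mean was kept, which gave 19938 genes, of which 19856 matched the RefSeq gene table. All were tested, with no filter on low values.

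With limma 3.58.1 (R 4.3.3), the 7 group means were estimated from the 14 arrays together. The residual degrees of freedom were 7, and 9.91 after moderation. Adjusted p-values are limma's, 2-sided, by Benjamini-Hochberg over 19938 genes, and a gene was called below 0.05. An exact permutation test of 2 against 2 arrays cannot give a 2-sided p under 0.333. Groups came from sample titles. Differentiated organoid and GB tissue samples of equal replicate number did not deviate together (r = -0.0072 over genes), and no source pairs them, so no pairing was used. The procedure was tested on simulated data, in which groups of unequal spread gave more false calls than the threshold allows, and array weights gave fewer. With unequal spread 61 of 202 calls were false, against 7 of 130 with array weights. The 4 arrays alone gave 3 false of 69 calls but found 0 of 50 planted changes of 1 log2 unit. With only 50 genes changed per size, the simulation does not give the error rate of these data.

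The comparison, its 34 gene lists (602 of 654 genes measured) and its tests were chosen with earlier results of these data known, and no list is given as independent evidence. Named genes were the 15 largest changes in each direction, 14 genes always named, and the 4 largest changes of each list. The sets of 15, here and below, were taken only from called genes whose arrays did not overlap between the groups. A further 15 lower genes, with GB tissue at least 2 log2 units above liver tissue, were chosen after their values were seen, as were genes named outside these rules (Slc9a3, Slc12a2, Gpbar1, Muc3, Tff2, Pou2f3, Trpm5, Trp63, Krt14, Chil1, Reg3b, Ccl20, Lyz2, Cdk1, Cdc20, Gins1, Gbp3, Stat2, Cyp2c65, Sult1c2, Fbln2, Cd14, Vil1, Ttr, Cpa1, Xist and Eif2s3y). Alternatives covered scaling, the filter on dim genes (40% left out), probe set averaging, the prior, array weights, a replicate block, each array left out, the compared arrays alone, a minimum difference of 1 log2 unit, and leaving out 1782 liver-high and 18 acinar genes. Centring on Epcam, Krt7 and Krt19 was added after seeing the data.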

Additional observations from a re-analysis of the deposited data

Results flagged for a closer look

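The changes below differed between organs by a test of the difference itself, an interaction term of the limma model over all 14 arrays with adjusted p over all genes. Each value is the organoid-minus-tissue change in the gallbladder, with differentiated organoids, minus that in the other organ, in log2 units with 2 arrays a group. Liver and small intestine organoids were kept in the full medium, so organ and medium cannot be told apart.

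Several epithelial genes differed from liver, whose tissue is mostly hepatocytes. The value was -6.11 for Krt19 (adjusted p = 5.83e-08), -6.29 for Muc1 (adjusted p = 4.76e-05), -4.50 for Epcam (adjusted p = 3.97e-06) and -3.23 for Sox17 (adjusted p = 2.41e-05). Krt19 was at 13.76 and 13.77 in liver organoids, against 7.29 and 7.41 in liver tissue. Against the small intestine Epcam differed by 1.13 (adjusted p = 0.00965), as did Cftr, the chloride channel (1.13, adjusted p = 0.0165). Aqp1, the water channel, differed by -1.49 from liver (adjusted p = 0.042) and by -2.44 from the small intestine (adjusted p = 0.00473).

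The Wnt target Lgr5 differed by -3.78 from the small intestine (adjusted p = 0.000884), where it was at 12.63 and 12.44 in organoids, against 8.75 and 8.74 in tissue. Axin2 differed by -0.89 from liver (adjusted p = 0.00156) and by -1.88 from the small intestine (adjusted p = 2.3e-05). The division marker Mki67 differed by 1.14 from the small intestine (adjusted p = 0.0204).

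Genes of the wall differed from both organs. For Acta2 the values were -4.24 from liver (adjusted p = 2.98e-06) and -1 from the small intestine (adjusted p = 0.00878), and for Col1a1 they were -1.47 (adjusted p = 0.000176) and -1.08 (adjusted p = 0.00114). Alb, the albumin gene, differed by -6.90 from the small intestine (adjusted p = 5.58e-05).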

How the results depend on the processing

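Of 153 named genes that were called, 116 kept their call in all 25 other settings. Against GB tissue, centring arrays on their medians gave 8801 higher calls, leaving out the dimmest 40% of genes gave 1728 lower calls over 11963 genes, and a minimum of 1 log2 unit gave 1593 higher and 1429 lower. Centring on Epcam, Krt7 and Krt19 gave 411 higher and 16199 lower, and 62 higher and 387 lower among list members. That scaling turned signs, with Lgr5 at -1.16, Krt19 at -0.88, Epcam at -0.35, Tff3 at -0.14, Smad7 at -0.23, Jag2 at -0.023, Cox6a1 at -0.18, Cycs at -0.21, S100b at -0.19, Epb42 at -0.62 and Slc4a1 at -0.999. Among genes that were not called, leaving out 1 array moved Lgr5 between -0.67 and 0.69 and Muc1 between -0.027 and 0.33, and median centring moved Axin2 to 0.04. The scaling on Epcam, Krt7 and Krt19 holds only the mean of those genes level between arrays and moves all genes by the shift of that mean. Krt7 rose most among them and so weighed most in the shift. Leaving out 1 array gave 3798 to 6191 higher and 1861 to 3140 lower calls against GB tissue, 220 to 807 higher and 116 to 583 lower against gallbladder organoids, 2157 to 4357 higher and 2277 to 3825 lower in the contrast with liver, and 2447 to 4120 higher and 1648 to 3111 lower in that with the small intestine. Against gallbladder organoids, array weights gave 2755 higher and 2965 lower, the compared arrays alone 2728 and 2625, and a minimum of 1 log2 unit 303 and 124. In the contrasts with liver and small intestine that minimum gave 1640 higher and 1926 lower, and 1815 higher and 1415 lower. GB tissue minus liver tissue, used to choose liver-high genes, gave 8849 lower with median centring, 3107 lower with array weights, 2212 higher and 1612 lower with the compared arrays alone, and 1876 higher and 1782 lower with the minimum. The replicate block gave 5654 higher and 2805 lower calls against GB tissue, with 8257 calls shared, and changed no named call. The cause of these moves was not tested. With 2 arrays a group and no detection calls, differences among dim genes are least certain.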
